A study of Mus musculus with 19 samples.

Results

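The genes described here are those of DNA replication and the cell cycle in mouse tibialis anterior muscle: 38 listed genes of the replication fork, nucleotide supply, mitosis, the G1 cyclins and kinases, the E2F and Rb pair and the inhibitors of cyclin-dependent kinases (CDKs). The list was given by name, and 37 of the 38 had a probe set annotated to that gene alone, out of 12393 genes so covered; Ccnb1 (cyclin B1) had none and has no value here. Where a gene had several such probe sets, the one with the highest mean over the arrays stood for it. Of the 37 genes, 22 lay among the 7436 brighter genes that were tested and 15 were too dim to be tested. One array was made for each of 19 samples of total RNA, in 4 groups. WT_Adult (5 arrays) and WT_Aged (5) are wild-type mice of the 129/SVE background, and KO_Adult (5) and KO_Aged (4) are Des(-/-) mice of the same background, which lack desmin, the intermediate filament protein that ties myofibrils together at the Z-discs. Adults were 7 to 9 weeks old and aged mice 12 to 14 months old. The labels name no promoter or tissue that limits the knockout. All 4 groups had 50 eccentric contractions, in which the active muscle is stretched, 12 hours before the RNA was taken, and no rested muscle was analysed here. So each value below is a level in contracted muscle, and each difference one between contracted muscles. Whether each array of a group stands for its own animal is not in the labels, and p-values measure only how these arrays vary, which may be technical in part.

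A cell that divides copies its DNA once, in S phase. The Mcm2 to Mcm7 proteins form the ring that unwinds the helix, Pcna is the clamp that holds the polymerase on it, and Tyms, Rrm1, Rrm2 and Tk1 supply the nucleotides. D-type cyclins with Cdk4 start the process by phosphorylating Rb1, which frees E2F factors to switch on the S-phase genes, while the inhibitors Cdkn1a, Cdkn1b and Cdkn1c hold the kinases back. The nuclei of a muscle fibre are post-mitotic, and dividing cells in muscle are found among satellite cells, immune cells, fibroblasts and endothelial cells. Several of these genes also act outside division, Pcna and Mcm proteins in DNA repair among them.

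The array values are MAS5 intensities, as deposited, and all values per array below are these. Differences are on the log2 scale after quantile normalization of log2(intensity + 4.76), from 1 limma fit over all 19 arrays, and a gene is called where the p adjusted by Benjamini-Hochberg over the 7436 genes is under 0.05. Folds on this scale understate the change of dim genes. The control probe sets divide the arrays. The 12 probe sets for the spiked poly-A controls averaged 154 to 334 on 8 arrays, which are all 5 WT_Aged arrays and KO_Adult arrays 3, 4 and 5, and 4.65 to 11.5 on the other 11. Where this difference came from is not in the labels. Because it coincides with the groups in WT and in KO_Aged, each comparison is given a second time with the presence of the controls as a term in the model (called the control term), which can be estimated only from the KO_Adult arrays that lie on both sides. KO_Aged arrays 2 and 3 had a Gapdh 3' to 5' ratio of 8.61 and 5.01, against 0.766 to 0.968 on the other 17, a ratio that rises as RNA is degraded. The Des probe set read 10749 to 22313 on WT arrays and 72.7 to 879 on KO arrays, and no array went against its genotype label. All 10 muscle fibre markers on the list used (Ckm, Acta1 and others) were tested and none was called in any comparison.

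The promoters of 4 genes are shown, searched for the motif through which E2F factors are known to act on S-phase genes. They are RefSeq sequences of build GRCm38.p6, 250 bases before to 50 bases after an annotated start, printed 5' to 3' on the gene's own strand. Capitals mark an E2F motif, that is TTTCCCGC, TTTGGCGC, TTTGCCGC or TTTCGCGC on either strand (written on the reverse strand as GCGGGAAA, GCGCCAAA, GCGGCAAA and GCGCGAAA). The Mcm6 promoter is shown because Mcm6 was called between the genotypes at both ages in all alternatives tried (chr1:128359656-128359955, minus strand, 3 matches, of which 2 overlap); Pcna was also higher in KO muscle (chr2:132253131-132253430, minus strand, no match); Mcm3 is a member of the same ring that was not called (chr1:20820263-20820562, minus strand, 2 matches); and Cdk1 is a mitotic gene near background (chr10:69352863-69353162, minus strand, 1 match).
Mcm6: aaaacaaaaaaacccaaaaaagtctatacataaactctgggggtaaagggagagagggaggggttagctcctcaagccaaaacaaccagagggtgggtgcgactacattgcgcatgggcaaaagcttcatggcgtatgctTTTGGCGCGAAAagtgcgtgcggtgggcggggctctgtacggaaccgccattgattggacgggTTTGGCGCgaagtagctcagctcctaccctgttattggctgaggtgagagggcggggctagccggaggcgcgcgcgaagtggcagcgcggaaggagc
Pcna: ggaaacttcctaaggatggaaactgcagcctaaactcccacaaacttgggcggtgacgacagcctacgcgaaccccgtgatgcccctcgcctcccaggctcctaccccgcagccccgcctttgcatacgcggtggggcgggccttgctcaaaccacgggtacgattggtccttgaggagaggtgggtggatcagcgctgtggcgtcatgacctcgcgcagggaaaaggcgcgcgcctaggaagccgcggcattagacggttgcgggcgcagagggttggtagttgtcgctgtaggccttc
Mcm3: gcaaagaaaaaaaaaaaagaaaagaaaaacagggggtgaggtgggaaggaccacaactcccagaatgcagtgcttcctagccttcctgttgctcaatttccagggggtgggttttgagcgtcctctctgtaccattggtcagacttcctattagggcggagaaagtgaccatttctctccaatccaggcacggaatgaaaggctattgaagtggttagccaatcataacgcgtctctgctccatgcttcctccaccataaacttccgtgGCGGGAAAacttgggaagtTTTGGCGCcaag
Cdk1: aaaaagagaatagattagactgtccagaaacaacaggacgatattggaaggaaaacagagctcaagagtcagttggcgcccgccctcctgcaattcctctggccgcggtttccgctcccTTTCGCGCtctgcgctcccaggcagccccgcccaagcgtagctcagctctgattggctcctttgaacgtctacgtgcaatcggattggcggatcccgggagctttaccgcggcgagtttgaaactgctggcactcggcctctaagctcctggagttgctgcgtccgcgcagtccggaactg
In Mcm6 the matches begin at -110, -106 and -47 from the start, in Cdk1 at -131, and in Mcm3 inside the transcribed part, at 19 and 38. Of the 38 listed genes 30 had a promoter in the table, and 8 of these 30 (26.7%) held an E2F motif, against 2.26% of all 32851 promoters of the same length, and 2.6% of their 27025 genes counted 1 time each. The CCAAT box, searched as CCAAT on both strands, was in 22 of the 30 (73.3%) and in 37.4% of all promoters (41.1% of genes). The CHR element of mitotic genes, searched as TTTGAA on both strands, was in 7 (23.3%) and in 17.9% (20.2% of genes). A gene with several annotated starts counts as holding a motif if any of them does, and a match is a match of letters only.

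In muscle without desmin the replication genes Mcm6 and Pcna were higher at both ages, while Aurka, a mitotic kinase, and Cdkn1c, a CDK inhibitor, were lower at both ages. With the control term Mcm6 kept its call at both ages and Cdkn1c in adults, while Pcna and Aurka lost theirs at both ages and Cdkn1c in aged mice. Most of the genes that mark dividing cells lay near the background of the arrays in all 4 groups. Several of the other differences, those of Dtl, E2f4, Rb1 and Ccnd3 among them, also appeared inside the KO_Adult group, between its arrays with and without the poly-A controls. That split called 27.3% of the tested members and 26.3% of all genes. E2f4 was lower in adult KO and Ccnd1 in aged KO, and both kept these calls with the control term.

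Between adult KO and adult WT muscle 8 of the 22 tested members (36.4%) were called, where 16.6% of all genes tested were. Mcm6, Pcna, Dtl and Rb1 were higher (7.21% of all genes were), and Ccnd3, Aurka, E2f4 and Cdkn1c were lower (9.39%). In aged muscle 9 members (40.9%) were called between KO and WT, against 29.4% of all genes: Mcm6, Mcm7, Pcna, Cdk4 and E2f4 were higher (17.1% of all genes), and Ccnd1, Aurka, Cdkn1b and Cdkn1c were lower (12.3%). The 2 members higher at both ages, Mcm6 and Pcna, stand against 2.10% of all genes, and the 2 lower at both ages, Aurka and Cdkn1c, against 1.64%. Aged WT differed from adult WT in 9 members, against 38.9% of all genes; Mcm4, Pcna, Dtl, Ccnd1, Aurka and Rb1 were higher (17.9% of all genes), and Ccnd3, E2f4 and Cdkn1c lower (21.0%). Aged KO differed from adult KO in 4 members (18.2%), against 7.32% of all genes, with Mcm6, Pcna and E2f4 higher (3.71%) and Cdkn1b lower (3.60%). The genotype difference itself changed with age (the interaction) in 8 members, against 25.1% of all genes: Mcm6, Cdk4, Ccnd3 and E2f4 had the higher difference in aged mice, and Dtl, Ccnd1, Rb1 and Cdkn1b the lower one. Leaving out KO_Adult array 3 or 4 took the adult genotype count from 8 to 5; leaving out KO_Adult array 3, 4 or 5 took the KO age count from 4 to 2, and leaving out KO_Aged array 3 took it to 1. Without both KO_Aged arrays of high Gapdh ratio the counts were 5 between aged genotypes, 0 for age in KO and 4 for the interaction, which was 4 or 5 without KO_Adult array 3 or 4 or KO_Aged array 2 or 3. The share in the WT age comparison is near that of all genes, and in all 13 of the 22 members (59.1%) were called in at least 1 of the 4 pairwise comparisons, where 56.7% of all genes were.

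The counts were smaller with the control term. They were 3 members in adult KO against WT (6.67% of all genes), Mcm6 higher and E2f4 and Cdkn1c lower, and 2 in aged KO against WT (5.45%), Mcm6 higher and Ccnd1 lower. Aged KO against adult KO gave 3 (9.99%), with Pcna and Rb1 higher and Cdkn1b lower. No member was called for age in WT (0.0941% of all genes) or for the interaction (0.0269%), where limma gave 6 members (14.1% of all genes) and 3 (16.5%) at an unadjusted p under 0.05. The term also widened the median standard error over all genes, from 0.22 to 0.35 for age in WT. Where both groups carry the controls, KO_Adult arrays 3 to 5 against WT_Aged gave 3 members (9.29% of all genes), Mcm6 higher and Ccnd1 and Aurka lower. Where neither does, KO_Aged against WT_Adult gave 11 (30.9%), 6 higher and 5 lower. The groups of these 2 comparisons differ in age as well as genotype, which cannot be told apart in them. Without the control term the members as a list did not move one way. The median difference of the 22 was 0.07 in adult KO against WT (0.04 over all genes tested) and -0.11 in aged KO against WT (0.08). It was 0.01 in aged against adult WT (-0.03) and -0.04 in aged against adult KO (0.03). With the term these medians were, in the same order, 0.19 (0.05), -0.43 (-0.004), 0.27 (0.02) and -0.08 (-0.03). By list, the 8 tested replication fork genes had medians of 0.46 in adult and 0.31 in aged KO against WT. With the term these were 0.55 and 0.61. The 4 CDK inhibitors had -0.08 and -0.77, and -0.46 and -0.61 with the term. The 5 tested G1 cyclins and kinases had -0.19 and -0.09, and 0.09 and -0.63 with the term. Whether the medians of the members or of these lists differ from those of all genes was not tested.

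**Figure D1:**
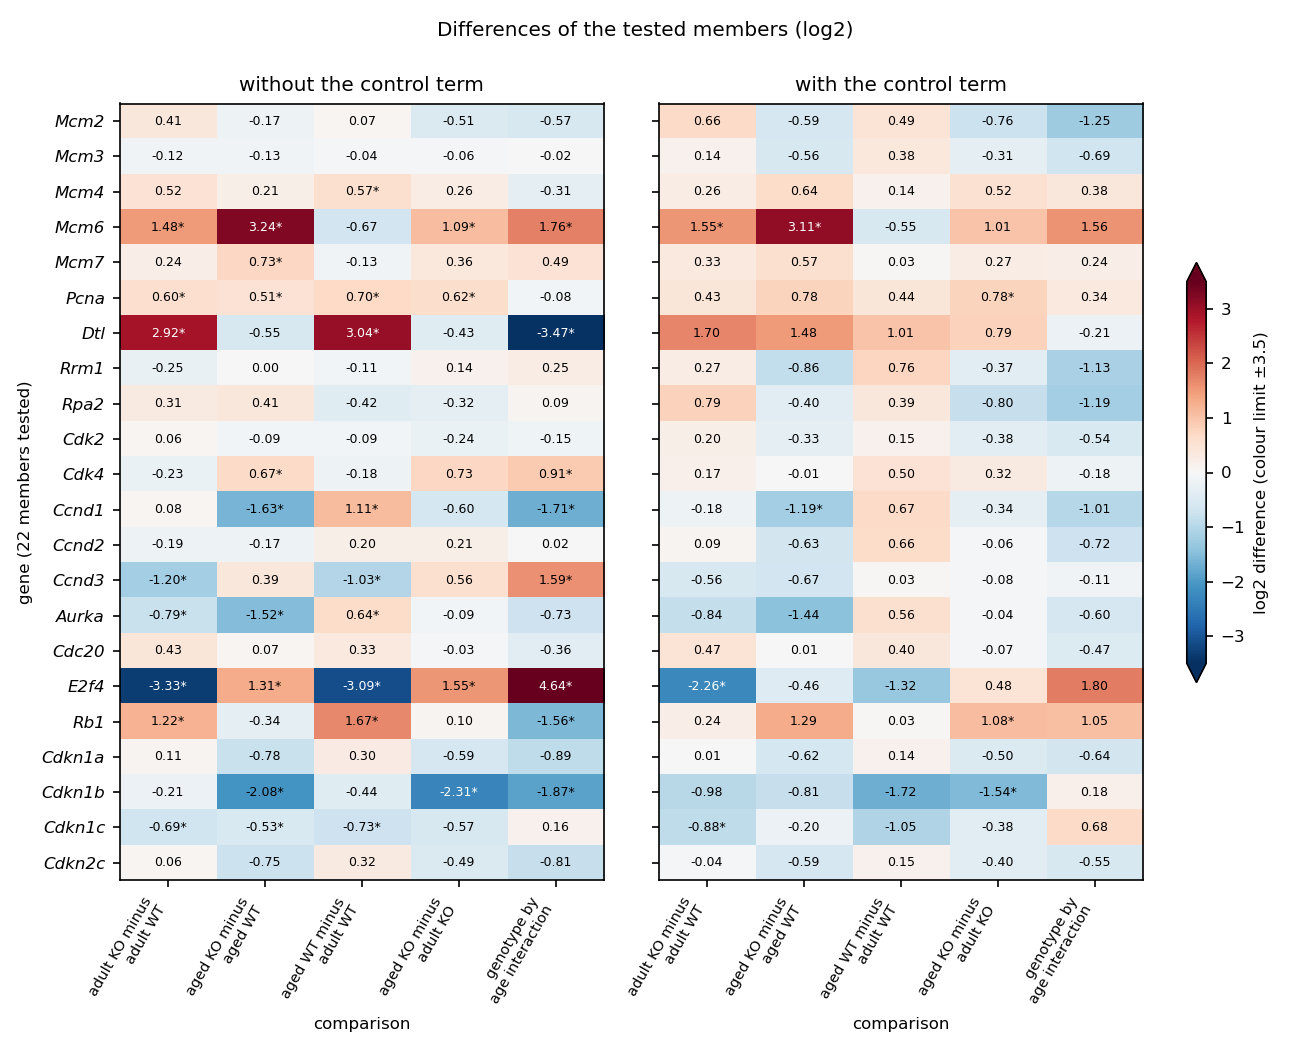
Log2 differences of the 22 tested members (vertical axis) in 4 pairwise comparisons and the genotype by age interaction (horizontal axis), without (left) and with (right) a term for the poly-A controls; red is higher, blue is lower, colours are limited at 3.5 in either direction, and an asterisk marks a call at an adjusted p under 0.05. Mcm6 is called in both genotype comparisons on both sides, while the large values of Dtl, E2f4, Rb1 and Ccnd3 on the left shrink or turn on the right.

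Mcm6, a subunit of the replicative helicase ring, was higher in KO muscle at both ages, and highest in aged KO. In WT muscle it read 47.1, 68.03, 87.9, 94.3 and 68.9 on the adult arrays and 35.4, 72.3, 34.4, 10.8 and 50.9 on the aged ones. In KO muscle it read 178, 186, 198, 162 and 156 on the adult arrays and 348, 530.4, 455 and 369 on the aged ones. Every KO array lay above every WT array, every aged KO array above every adult KO array, and the WT ages overlapped. The group means were 73.2 ± 18.6 (SD, n = 5), 40.8 ± 22.7 (SD, n = 5), 176 ± 17.3 (SD, n = 5) and 426 ± 83.8 (SD, n = 4) in the same order. The difference was 1.48 (SE 0.29, adjusted p = 0.00215) in adults, 2.79-fold, and 3.24 (SE 0.31, adjusted p = 2.58e-06) in aged mice, 9.43-fold. These became 1.55 (SE 0.39, adjusted p = 0.0261) and 3.11 (SE 0.53, adjusted p = 0.00532) with the control term. Among arrays that all carry the controls, KO_Adult 3 to 5 lay above WT_Aged, which is also older, by 2.10 (SE 0.34, adjusted p = 0.000903), and inside KO_Adult the arrays with controls against those without gave -0.12 (SE 0.42, adjusted p = 0.854). Both genotype differences passed in all 32 alternatives tried, from 1.18 to 1.75 in adults and from 2.59 to 3.46 in aged mice. Both WT means lie under the level of the filter on dim genes, 74.9, so Mcm6 was tested through its KO arrays. With no filter limma still called both (adjusted p = 0.0057 and 1.11e-05). WT_Aged array 4 lay under the background level of 28.2 described below, so the size of the aged difference depends on the pseudocount. With a pseudocount of 32 the differences were 1.18 and 2.59. Within KO, the rise with age was 1.09 (SE 0.31, adjusted p = 0.038); it did not pass with the control term (1.01, adjusted p = 0.107), with the title codes as a random block (1.12, adjusted p = 0.0527) or without the 2 arrays of high Gapdh ratio (0.76, adjusted p = 0.33), nor when any 1 of 7 arrays was left out (0.93 to 1.18). The interaction was 1.76 (SE 0.42, adjusted p = 0.00636), and 1.56 (adjusted p = 0.326) with the control term. A second Mcm6 probe set was too dim to test, with group means of 18.5, 27.2, 66.3 and 126, and these too were higher in both KO groups.

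Pcna, the sliding clamp, rose with age and was higher without desmin at each age. It read 1217, 1079, 944, 1339 and 1314 in WT_Adult and 2457, 1826, 1992, 1943 and 1633 in WT_Aged. In KO_Adult it read 1410, 1775, 2359, 1797 and 1857, and in KO_Aged 2872, 2877, 2913 and 2482. WT_Adult was lowest and KO_Aged highest, neither overlapping any other group, and WT_Aged and KO_Adult overlapped. The genotype difference was 0.60 (SE 0.15, adjusted p = 0.0115) in adults and 0.51 (SE 0.16, adjusted p = 0.0223) in aged mice. The age difference was 0.70 (SE 0.15, adjusted p = 0.00199) in WT and 0.62 (SE 0.16, adjusted p = 0.0254) in KO. The values kept their sign with the control term, and the age difference in KO passed (0.78, adjusted p = 0.0255), while the others did not, at 0.43 (adjusted p = 0.172), 0.78 (adjusted p = 0.0775) and 0.44 (adjusted p = 0.437). The aged genotype difference did not pass without WT_Aged array 5 (0.44), KO_Aged array 3 (0.50) or both KO_Aged arrays of high Gapdh ratio (0.49), nor did the age difference in KO without KO_Adult array 1 (0.53), KO_Aged array 3 (0.60) or that pair (0.60). Among arrays that all carry the controls, KO_Adult and the older WT_Aged gave -0.0005 (SE 0.17, adjusted p = 0.998). Among arrays without them, KO_Aged lay above WT_Adult by 1.22 (SE 0.15, adjusted p = 3.17e-05), where age differs too.

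Mcm7, another helicase subunit, was higher in aged KO than in aged WT muscle. It read 360, 360.3, 427, 370.4 and 308 in WT_Adult and 363, 323, 276, 343 and 268 in WT_Aged. KO_Adult arrays read 374, 453, 442, 307 and 414 and KO_Aged arrays 462, 719, 584 and 469. All KO_Aged arrays were above all others, and the highest of them were arrays 2 and 3, those with the high Gapdh ratio. The aged genotype difference was 0.73 (SE 0.18, adjusted p = 0.00547); without those 2 arrays it was 0.42 and with the control term 0.57 (adjusted p = 0.245), and neither passed. Of its other 3 probe sets bright enough to test, 2 were not called in the same comparison (0.43 and 0.23). The other 1 was (1.13, adjusted p = 0.00541), though not with the control term (-0.04, adjusted p = 0.953). That probe set was also lower in aged than adult WT (-1.15, adjusted p = 0.0027), where the one used gave -0.13 (adjusted p = 0.56). With the control term its age difference in WT was 0.02 (adjusted p = 0.987).

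Mcm4, of the same ring, was higher in aged than in adult WT muscle on its main probe set. WT_Adult arrays read 130, 135, 138, 148 and 123 and WT_Aged arrays 196, 193, 153, 249.9 and 133. The KO arrays read 126, 146, 231, 154 and 199.7 in adults and 222, 166, 188 and 320.4 in aged mice. These intensities overlapped between WT ages, and WT_Adult was the most uniform group. The age difference in WT was 0.57 (SE 0.18, adjusted p = 0.0199), and it did not pass without WT_Aged array 4 (0.47), without WT_Adult arrays 4 and 5 (0.47) or with the control term (0.14, adjusted p = 0.843). A second probe set gave 1.28 (adjusted p = 0.000145) there, and it was called in adult KO against WT too (1.01, adjusted p = 0.00204) and, in the other direction, in aged KO against WT (-0.60, adjusted p = 0.0304), where the main one gave 0.52 (adjusted p = 0.0565) and 0.21 (adjusted p = 0.434). With the control term only its adult genotype call held (0.97, adjusted p = 0.036), and the others were 1.22 (adjusted p = 0.164) and -0.53 (adjusted p = 0.327). The 2 probe sets thus differ on the genotypes. The probe sets that stand for Mcm2, Mcm3, Mcm7 and Cdk4 are of kinds that can match several transcripts, by their names. The second Mcm4 probe set is of such a kind too, and the main one is not.

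**Figure D2:**
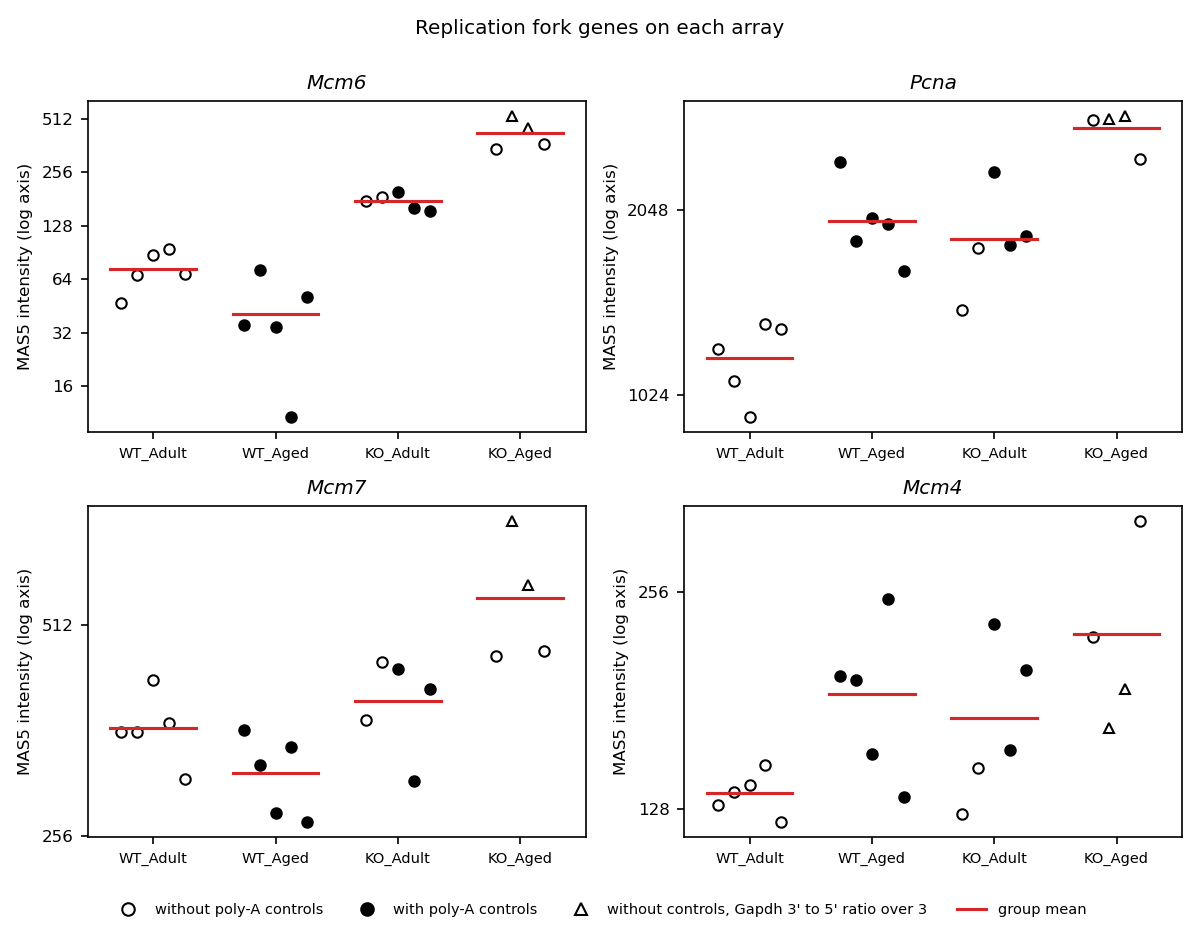
MAS5 intensity (vertical, log axis) of Mcm6, Pcna, Mcm7 and Mcm4 on each of the 19 arrays, by group; filled points are arrays with the poly-A controls, triangles the KO_Aged pair of high Gapdh ratio, and red lines group means. For Mcm6 all 9 KO arrays lie above all 10 WT arrays, whatever their filling, with KO_Aged between 348 and 530.

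Mcm2, Mcm3 and Rpa2 did not pass in any pairwise comparison on the probe sets used. Mcm2 ran from 69.2 to 269.7 over the 19 arrays, Mcm3 from 65.6 to 175 and Rpa2, a subunit of the protein that coats single-stranded DNA, from 214 to 572. Their genotype differences were 0.41 (adjusted p = 0.45) and -0.17 (adjusted p = 0.772) for Mcm2 and -0.12 (adjusted p = 0.81) and -0.13 (adjusted p = 0.764) for Mcm3. For Rpa2 they were 0.31 (adjusted p = 0.385) and 0.41 (adjusted p = 0.237). A second Rpa2 probe set was lower in aged than adult WT (-1.21, adjusted p = 0.0159), but not with the control term (0.65, adjusted p = 0.446). With that term it was called higher in adult KO than adult WT (1.16, adjusted p = 0.0307) and lower in aged than adult KO (-1.40, adjusted p = 0.0134). Without the term these were 0.04 (adjusted p = 0.951) and -0.28 (adjusted p = 0.736). Mcm5, also of the ring, and the DNA ligase Lig1 were dim, at 2.35 to 62.95 and 33.5 to 137. Of the 5 Mcm genes tested, only Mcm6 was called between genotypes at both ages on the probe sets used; whether its difference exceeds those of the other Mcm genes was not tested.

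Dtl, the substrate adaptor of a ubiquitin ligase that acts on proteins at Pcna-loaded DNA, was lowest in WT_Adult. Its WT arrays read 19.4, 29.8, 10.3, 28.2 and 5.26 in adults and 187, 119.9, 159, 97.5 and 197 in aged mice. The KO arrays read 55.9, 50.6, 192, 533 and 125 in adults and 172, 106, 85.5 and 73.2 in aged mice. All WT_Adult arrays lay below all others, and in KO_Adult the 3 arrays with poly-A controls lay above the 2 without. Of the WT_Adult values 3 were at or under the background level of 28.2 described below and 2 were at 28.2 and 29.8, so the size of a difference from that group depends on the pseudocount. The difference was 2.92 (SE 0.51, adjusted p = 0.000999) in adult KO against WT and 3.04 (SE 0.51, adjusted p = 0.000349) in aged against adult WT, and with a pseudocount of 32 these were 1.89 and 1.94. The KO_Adult arrays with controls lay above those without by 2.04 (SE 0.57, adjusted p = 0.0176), and with the control term neither pairwise difference passed, at 1.70 (adjusted p = 0.0603) and 1.01 (adjusted p = 0.512). Inside the arrays without controls, KO_Aged lay above WT_Adult by 2.49 (SE 0.42, adjusted p = 0.000376). The mean of Dtl, 6.33 on the log2 scale, is just above the limit for testing, 6.32, which it reached through the groups where it is high and missed when any 1 of 10 arrays was left out.

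No nucleotide supply gene was called on the probe set used. Rrm1, the large subunit of ribonucleotide reductase, was the only one tested, and ran from 277 to 618, with genotype differences of -0.25 (adjusted p = 0.455) and 0.003 (adjusted p = 0.993). In KO_Adult it was 277 to 568, and the arrays with controls were lower than those without, at -0.86 (SE 0.25, adjusted p = 0.0198). A second Rrm1 probe set was called in aged KO against WT (1.48, adjusted p = 0.0165) and in aged against adult WT (-1.93, adjusted p = 0.00181), and both values turned with the control term, to -0.72 (adjusted p = 0.227) and 0.27 (adjusted p = 0.74). Tyms (thymidylate synthase), Rrm2, the small reductase subunit, and Tk1 (thymidine kinase) were dim, at 1 to 22.8, 21.4 to 102 and 17.3 to 157.

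Genes of G2 and mitosis were mostly at background. Of the 10 measured, 8 were too dim to test. Mki67, the common marker of proliferating cells, read 12.9, 2.4, 10.1, 27.3 and 28.8 in WT_Adult and 17.1, 39.8, 34.2, 28.5 and 47.8 in WT_Aged. Its KO arrays read 37.3, 8.5, 23.4, 7.998 and 118 in adults and 41.7, 18.8, 44.8 and 39.4 in aged mice. KO_Adult array 5 alone was above 100, and the groups overlapped. Top2a, the topoisomerase that untangles chromosomes, read 11.2, 26.6, 39.9, 73.96 and 6.06 in WT_Adult, 19.04, 2.75, 35.4, 39.8 and 44.3 in WT_Aged, 26.7, 30.7, 3.12, 4.77 and 57.2 in KO_Adult and 2.96, 33.9, 18.6 and 28.3 in KO_Aged. Cdk1, the kinase that drives entry into mitosis, read 1.58, 2.3, 1.71, 2.77 and 14.9 in WT_Adult and 2.55, 1.7, 2.66, 2.11 and 2.13 in WT_Aged. Its KO arrays read 19.2, 9.01, 1.61, 2.47 and 25.5 in adults and 1.45, 20.9, 18.6 and 24.2 in aged mice. For both genes the ranges of the 4 groups overlapped. As a gauge of background, bacterial probe sets on the 11 arrays without spiked RNA had a median of 6.47 and a 95th percentile of 28.2 over 132 values. Over the 15 dim members, 162 of 285 values (56.8%) were at or under 28.2, and 10 of the 15 had a median below it. When all 12393 genes were tested with no filter, limma called 0 of the 15 in each of the 5 comparisons, where 1 or 2 had an unadjusted p under 0.05. A change in values near this background could be missed. Lig1, Tk1 and Rrm2 exceeded 28.2 on 19, 18 and 17 arrays, and for them too the lack of a call does not show that nothing changed.

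**Figure D3:**
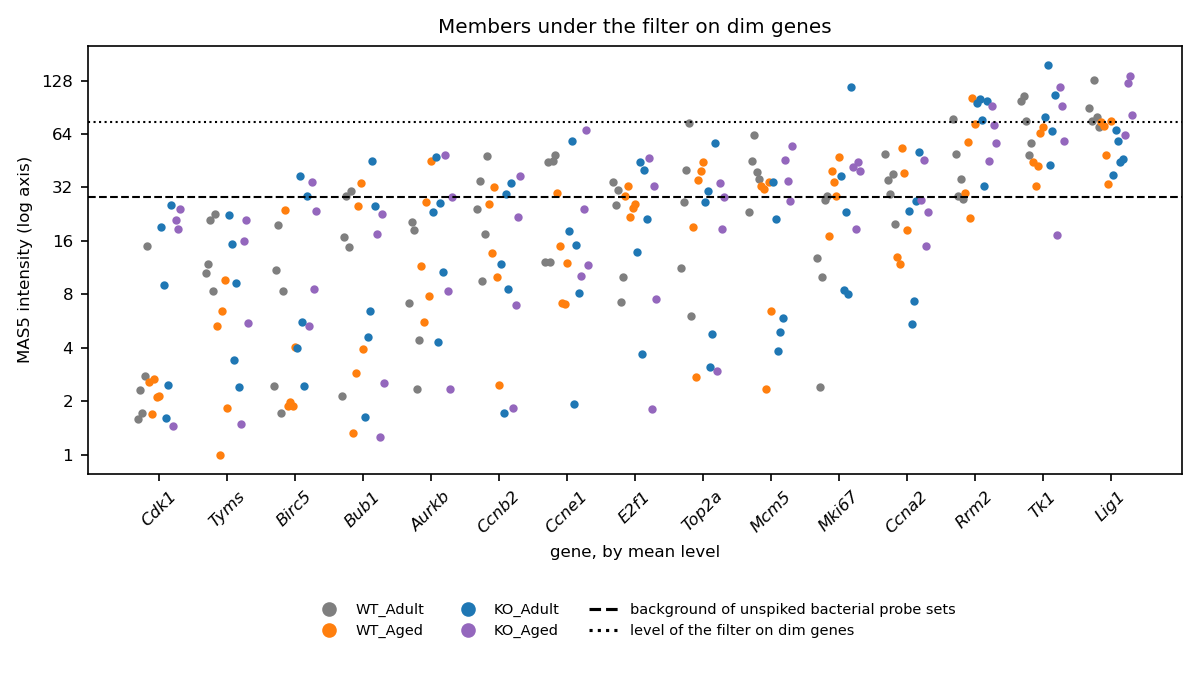
MAS5 intensity (vertical, log axis) of the 15 members too dim to test (horizontal axis), one point per array, coloured by group. The dashed line is the 95th percentile of unspiked bacterial probe sets (28.2) and the dotted line the level of the filter on dim genes (74.9); 162 of the 285 points are at or under the dashed line.

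Aurka, the mitotic kinase of the spindle poles, was the one mitotic gene called, and it was lower in KO. It read 329.6, 288, 280.5, 229 and 157 in WT_Adult and 324, 456, 279.7, 404 and 367 in WT_Aged. In KO_Adult it read 87.1, 157, 109.9, 109.9 and 168 and in KO_Aged 101, 108, 140.3 and 165. The aged genotypes did not overlap, and in adults WT array 5 alone lay within the KO range. The difference was -0.79 (SE 0.24, adjusted p = 0.0333) in adults and -1.52 (SE 0.26, adjusted p = 0.000352) in aged mice. It kept its size with the control term but did not pass, at -0.84 (adjusted p = 0.129) and -1.44 (adjusted p = 0.0621). Among arrays that all carry the controls, KO_Adult lay below WT_Aged, at -1.39 (SE 0.28, adjusted p = 0.00574), where age differs too. The adult call was lost when any 1 of 6 arrays was left out (-0.75 to -0.67) and with the title codes as a random block (-0.85, adjusted p = 0.0576), and the aged call was kept without each array. Aged WT was higher than adult WT by 0.64 (SE 0.24, adjusted p = 0.0452), a call lost without any 1 of 11 arrays (0.42 to 0.70), without the KO_Aged pair of high Gapdh ratio (0.63) and without WT_Adult arrays 4 and 5 (0.28). Cdc20, which activates the anaphase-promoting complex, ran from 37.3 to 187 and was not called in any comparison. Ccna2, Ccnb2, Aurkb, Bub1 and Birc5 were among the dim ones, at 5.46 to 53.3, 1.72 to 48.2, 2.33 to 48.5, 1.25 to 45.1 and 1.72 to 37.3.

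Ccnd1, cyclin D1, the partner of Cdk4 in early G1, was highest in aged WT muscle. It read 309, 364, 259, 311 and 266 in WT_Adult and 560.3, 617, 487, 809 and 649.8 in WT_Aged. The KO arrays read 198, 267, 456, 312 and 248 in adults and 233, 168, 171 and 231 in aged mice. Every WT_Aged array was above every other array, and KO_Adult overlapped both WT_Adult and KO_Aged. Aged KO was lower than aged WT, at -1.63 (SE 0.20, adjusted p = 2.29e-05), and with the control term at -1.19 (SE 0.32, adjusted p = 0.0374). That second value did not pass without the KO_Aged pair of high Gapdh ratio (-1.11). Among arrays with controls, KO_Adult lay below WT_Aged, at -0.85 (SE 0.20, adjusted p = 0.0144), where age differs too. The rise with age in WT was 1.11 (SE 0.19, adjusted p = 4e-04), and 0.67 (adjusted p = 0.341) with the control term; the adult genotypes differed by 0.08 (adjusted p = 0.807). A second bright Ccnd1 probe set did not show the aged genotype difference (-0.28, adjusted p = 0.319), so the result rests on 1 of 2; another, too dim to test, had group means of 61.4 in WT_Adult, 198 in WT_Aged, 91.8 in KO_Adult and 30.6 in KO_Aged.

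The other G1 genes gave 1 further call between aged genotypes and 1 between adult ones. Cdk4 read 507, 487, 524, 319 and 351 in WT_Adult and 396, 368, 406, 395 and 249.8 in WT_Aged. In KO_Adult it read 433, 441, 312, 238 and 289.5 and in KO_Aged 499, 591, 736 and 602. The KO_Aged arrays were above all WT_Aged arrays, and in KO_Adult the 3 arrays with controls were lower than the 2 without. Aged KO was higher than aged WT by 0.67 (SE 0.23, adjusted p = 0.0354), but -0.01 (adjusted p = 0.994) with the control term. The call was also lost without WT_Aged array 2 or 5 or KO_Aged array 2, 3 or 4 (0.56 to 0.69), or both of high Gapdh ratio (0.47), and its other 2 probe sets were not called (0.27 and 0.41). Ccnd3, cyclin D3, read 406, 433, 580.3, 373 and 331 in WT_Adult and 275, 149.5, 177, 249 and 133 in WT_Aged. Its KO arrays read 251, 254, 171, 71.99 and 138 in adults and 400.3, 173, 207 and 308 in aged mice. WT_Adult was above all WT_Aged and all KO_Adult arrays, and within KO_Adult the arrays with controls were the lower ones. It was lower in adult KO, at -1.20 (SE 0.30, adjusted p = 0.0108) and in aged WT, at -1.03 (SE 0.30, adjusted p = 0.0122), and with the control term the values were -0.56 (adjusted p = 0.307) for the first and 0.03 (adjusted p = 0.981) for the second. Ccnd2, cyclin D2, ran from 195 to 389 and Cdk2, which acts with cyclin E, from 63.1 to 139, and neither was called on the probe set used. A less bright Ccnd2 probe set was lower in aged KO than aged WT (-2.48, adjusted p = 0.0014), where the one used gave -0.17 (adjusted p = 0.548). It was also called for age in WT (2.13, adjusted p = 0.00224), age in KO (-1.72, adjusted p = 0.0418) and the interaction (-3.84, adjusted p = 0.000794). Further Ccnd2 probe sets were called higher in aged than adult WT (0.47, adjusted p = 0.0247, and 0.80, adjusted p = 0.0493), where the one used gave 0.20 (adjusted p = 0.425). With the control term none of these calls passed, and the aged genotype difference was -1.24 (adjusted p = 0.317). By their names, the Ccnd2 probe sets that gave -2.48 and 0.80 are of kinds that can match several transcripts. Ccne1 (cyclin E1) was dim, at 1.94 to 67.5.

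E2f4, the E2F factor that works mainly as a repressor with pocket proteins, was much higher in WT_Adult than elsewhere. It read 645, 679, 1039, 1046 and 1088 in WT_Adult and 114, 54, 112, 87.6 and 141 in WT_Aged. In KO_Adult it read 184, 152, 30.7, 47.8 and 55.2 and in KO_Aged 504, 169, 242 and 214. No other array reached the lowest WT_Adult array, and in KO_Adult the 3 arrays with controls were below the 2 without. Adult KO was lower than adult WT, at -3.33 (SE 0.39, adjusted p = 1.98e-05), and with the control term at -2.26 (SE 0.35, adjusted p = 0.00109). This call held in all 32 alternatives, from -3.72 to -2.25. Aged WT was lower than adult WT, at -3.09 (SE 0.39, adjusted p = 4.01e-05), and at -1.32 (adjusted p = 0.235) with the term. In aged mice KO was higher by 1.31 (SE 0.41, adjusted p = 0.0221), but the value turned to -0.46 (adjusted p = 0.563) with the term, and it did not pass without WT_Aged array 2 (1.13), KO_Aged array 1 (1.03) or the pair of high Gapdh ratio (1.52). Aged KO exceeded adult KO by 1.55 (SE 0.41, adjusted p = 0.0285), which was 0.48 (adjusted p = 0.388) with the term and lost its call without KO_Adult array 3, 4 or 5 or KO_Aged array 1 or 3 (1.26 to 1.57), or the pair of high Gapdh ratio (1.75). KO_Adult arrays with controls were lower than those without, at -1.77 (SE 0.38, adjusted p = 0.00495). E2f4 has 1 probe set here.

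Rb1, the pocket protein that holds E2F factors, also differed by the controls. It read 259.5, 227, 239.7, 499.7 and 527 in WT_Adult and 977, 1211, 1000, 873 and 1102 in WT_Aged. The KO_Adult arrays read 363, 342, 1184, 1261 and 1131 and the KO_Aged arrays 906, 607, 742 and 1083. The KO_Adult arrays with controls lay above 1100 and overlapped WT_Aged, and those without lay within the WT_Adult range; KO_Aged, without controls, was above all WT_Adult arrays and overlapped WT_Aged. Adult KO was higher than adult WT by 1.22 (SE 0.33, adjusted p = 0.0183) and aged WT higher than adult WT by 1.67 (SE 0.33, adjusted p = 0.00128). These were, with the control term, 0.24 (adjusted p = 0.615) and 0.03 (adjusted p = 0.973), while aged against adult KO became 1.08 (SE 0.28, adjusted p = 0.0282) in place of 0.10 (adjusted p = 0.901). Inside KO_Adult the arrays with controls were higher by 1.63 (SE 0.30, adjusted p = 0.00239). Inside the arrays without controls KO_Aged was above WT_Adult by 1.32 (SE 0.22, adjusted p = 0.000341). The adult call was lost without WT_Adult array 3 or KO_Adult array 3, 4 or 5 (1.03 to 1.12). E2f1, an activating E2F, was dim, at 1.79 to 46.8.

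Inside KO_Adult, 6 of the 22 members (27.3%) were called between its 3 arrays with and 2 arrays without controls, where 26.3% of all genes were. Dtl and Rb1 were higher with controls, and Rrm1, Rpa2, Ccnd3 and E2f4 were lower. All 5 of these arrays carry the same genotype and age label, and the cause of the split was not tested.

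**Figure D4:**
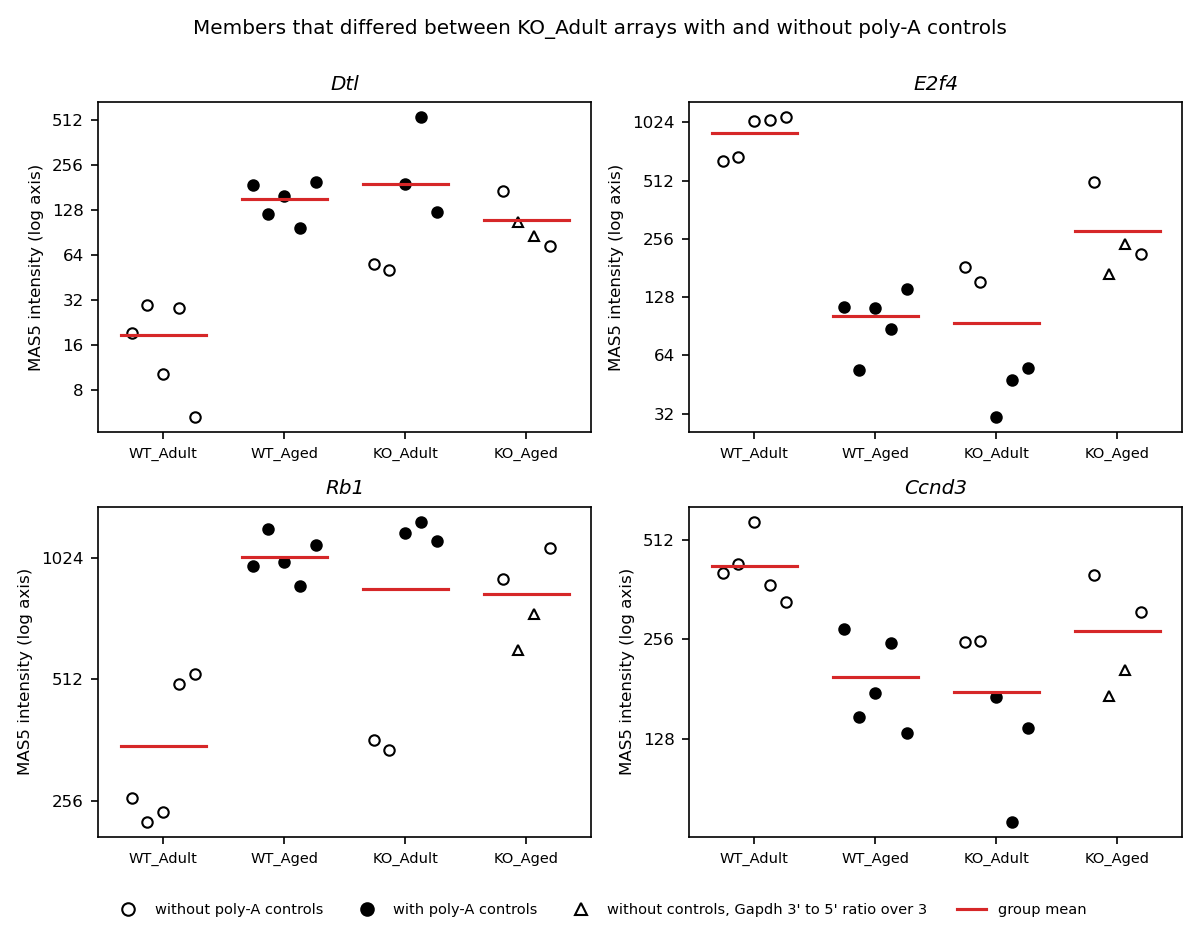
MAS5 intensity (vertical, log axis) of Dtl, E2f4, Rb1 and Ccnd3 on each array, by group; filled points are arrays with the poly-A controls, triangles the KO_Aged pair of high Gapdh ratio, red lines group means. In KO_Adult the filled points lie apart from the open ones for each gene, above them for Dtl and Rb1 and below them for E2f4 and Ccnd3.

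Among the CDK inhibitors, Cdkn1c (p57) was lower in KO muscle and in aged WT. It read 433, 370.1, 448, 380 and 317 in WT_Adult and 226, 219.6, 233, 211 and 204 in WT_Aged. In KO_Adult it read 175, 192, 182, 210.2 and 364 and in KO_Aged 149, 169, 124 and 186. WT_Adult was above all other arrays but KO_Adult array 5, and KO_Aged was below all WT_Aged arrays. The adult genotype difference was -0.69 (SE 0.18, adjusted p = 0.016), and -0.88 (SE 0.23, adjusted p = 0.0334) with the control term. The aged one was -0.53 (SE 0.19, adjusted p = 0.0486), close to the threshold, and it was -0.20 (adjusted p = 0.726) with the term; it lost its call without any 1 of 14 arrays (-0.56 to -0.44) and without the pair of high Gapdh ratio (-0.58). Aged WT was lower than adult WT, at -0.73 (SE 0.18, adjusted p = 0.00529), and at -1.05 (adjusted p = 0.174) with the term.

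Cdkn1b (p27), the inhibitor that keeps resting cells out of the cycle, was lowest in aged KO muscle. It read 320.5, 296, 583, 1055 and 1268 in WT_Adult and 477, 483, 323, 532 and 404 in WT_Aged. In KO_Adult it read 245, 323, 988, 694 and 587 and in KO_Aged 185, 73.8, 74.7 and 106. Every KO_Aged array was below every other array, and the lowest were arrays 2 and 3, those with the high Gapdh ratio. WT_Adult arrays 4 and 5 were the highest. In KO_Adult the 3 arrays with controls lay above the 2 without, by 1.28 (SE 0.50, adjusted p = 0.0638), which did not pass. Aged KO was lower than adult KO, at -2.31 (SE 0.42, adjusted p = 0.00398), and with the control term at -1.54 (SE 0.47, adjusted p = 0.0466). Against aged WT it was lower, at -2.08 (SE 0.42, adjusted p = 0.00135), and with the term at -0.81 (adjusted p = 0.431). Without arrays 2 and 3 the difference from adult KO was -2.02 and did not pass.

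Cdkn1a (p21), the inhibitor induced by p53, was bright in every group and not called. WT arrays read 4921, 3929, 5760, 3037 and 5775 in adults and 5427, 6167, 4832, 6472 and 6160 in aged mice. KO arrays read 7878, 2985, 5342, 7485 and 3836 in adults and 5572, 2143, 3949 and 2341 in aged mice. The groups overlapped, and the KO arrays were the more spread. Its differences were 0.11 (adjusted p = 0.837) in adults and -0.78 (adjusted p = 0.0694) in aged mice, and a second probe set gave 0.48 and -0.41, neither called. Cdkn2c (p18), an inhibitor of Cdk4, ran from 63.2 to 277, with 0.06 (adjusted p = 0.909) and -0.75 (adjusted p = 0.0667).

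**Figure D5:**
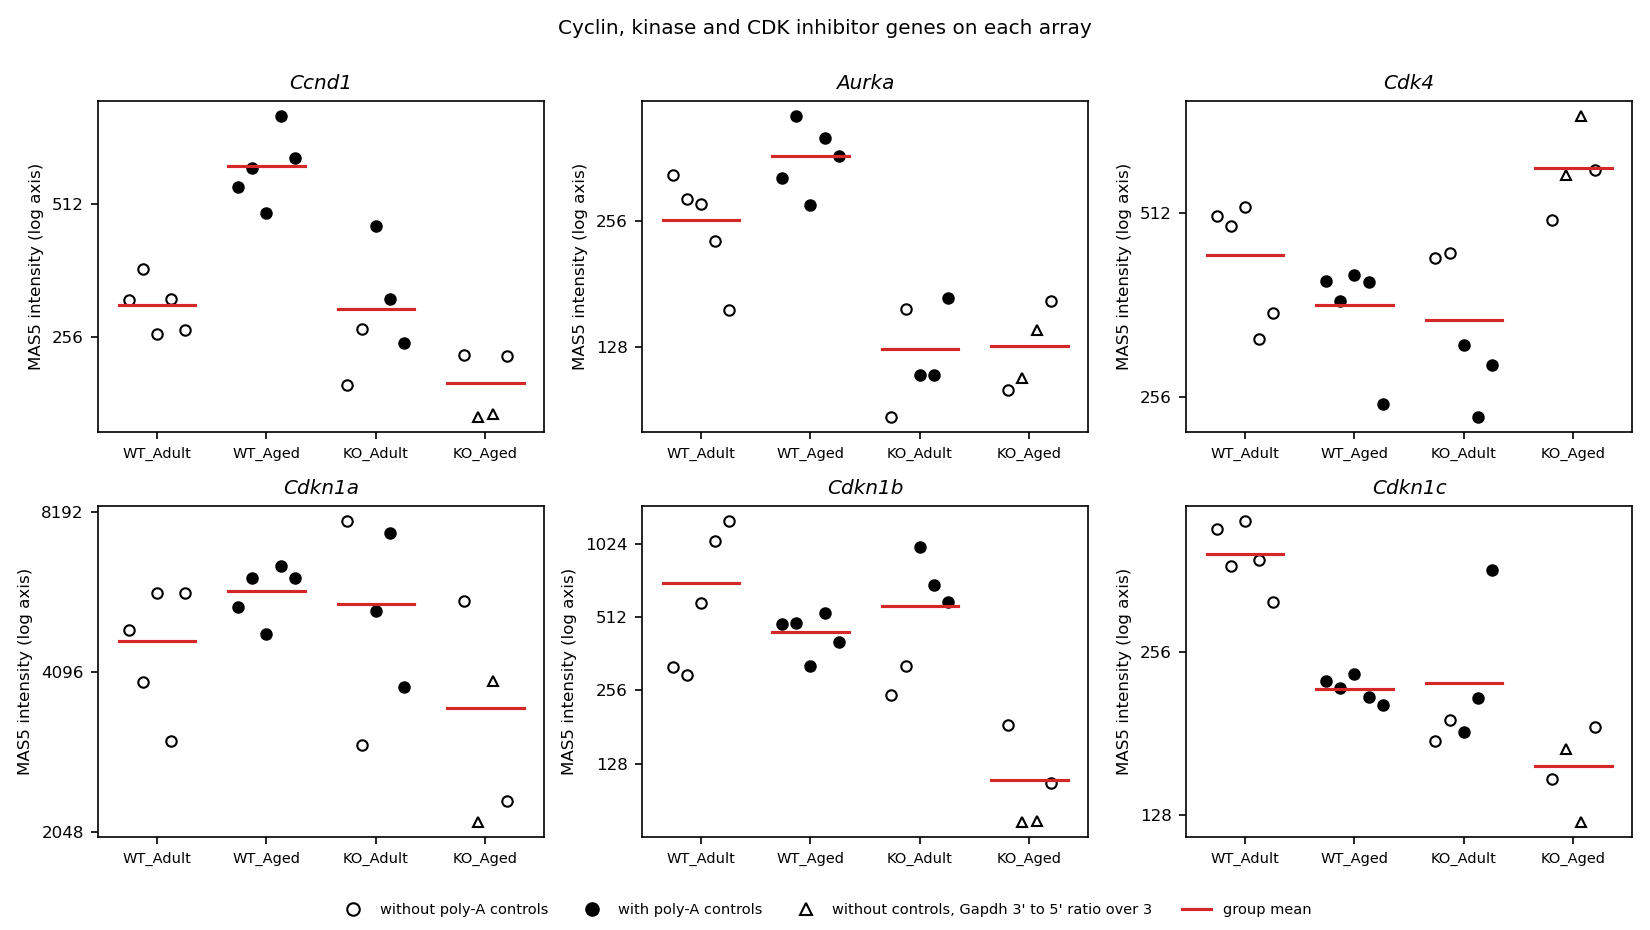
MAS5 intensity (vertical, log axis) of Ccnd1, Aurka, Cdk4, Cdkn1a, Cdkn1b and Cdkn1c on each array, by group, with filled points for arrays with the poly-A controls, triangles for the KO_Aged pair of high Gapdh ratio and red lines for group means. All WT_Aged arrays are above the rest for Ccnd1 (487 to 809), and all KO_Aged arrays below the rest for Cdkn1b (73.8 to 185).

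The wider replication machinery was measured on lists of other genes, whose counts stand against the 16.6% of all genes called between adult and the 29.4% between aged genotypes. Of 8 tested licensing and helicase genes, 1 was higher and 1 lower in adult KO, and 1 higher and 1 lower in aged KO. Gins1, a subunit of the helicase's GINS complex named here after its value was seen, was higher in adult KO by 1.73 (SE 0.36, adjusted p = 0.00307), and by 1.98 (adjusted p = 0.0212) with the control term. In aged muscle Orc5, of the origin recognition complex, was higher by 1.01 (adjusted p = 0.00149) and Cdt1, which loads the helicase, lower, at -1.37 (adjusted p = 0.00288); neither passed with the term. Of 12 polymerase, clamp loading and ligation genes, 1 was lower in adult KO, the flap nuclease Fen1 (-1.06, adjusted p = 0.0129), and in aged KO 3 were higher and 1 lower. The clamp loader subunit Rfc2 was among those higher there (1.59, adjusted p = 0.00566). On the mitotic list 32 of the 40 genes measured were dim; of the 8 tested 0 were called in adult KO and 4 in aged KO, 2 in each direction, the largest that of the condensin subunit Ncapd2 (1.63, adjusted p = 0.000542). Of 6 tested genes of nucleotide supply and chromatin assembly, 0 were called in adult KO, and Dut, which breaks down dUTP, was lower in aged KO (-0.58, adjusted p = 0.0473). Of 9 tested G1 regulators and pocket proteins, 1 was higher and 1 lower in adult KO and 2 were higher in aged KO, among them Rbl2 (p130), the pocket protein partner of E2f4 (0.74, adjusted p = 0.0038). The p53 targets, of which 12 were tested, gave 0 calls in adult KO and 6 in aged KO, 2 higher and 4 lower, the largest that of the antiproliferative gene Btg2 (-3.30, adjusted p = 0.000197). With the control term no gene of the polymerase, nucleotide supply, mitotic and p53 target lists was called in either genotype comparison. On the list of G1 regulators and pocket proteins 1 gene was higher in adult KO with the term. In aged KO 0 of that list were called with it, so Rbl2 did not pass.

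Markers of cells that could hold the dividing nuclei also differed between the groups. Of all genes tested, 7.21% were higher and 9.39% lower in adult KO, and 17.1% higher and 12.3% lower in aged KO. In aged against adult WT 17.9% were higher. With the control term 6.67%, 5.45% and 0.0941% were called in these comparisons, in either direction. In adult KO 8 of 10 endothelial markers were lower, and in aged KO 5 of 10 were lower and 1 higher; with the control term 6 and 3 were lower and 0 higher. Their summed intensity was 7270 to 8390 in adult and 5430 to 6670 in aged WT muscle, against 3380 to 4030 and 3320 to 4520 in KO muscle of the same ages. Neutrophil markers summed to 538 to 1840 and 2580 to 13300 in adult and aged WT, and to 513 to 4490 and 7040 to 12800 in KO. Macrophage markers summed to 3250 to 6100 and 3510 to 13300 in WT and to 4090 to 7070 and 6760 to 13000 in KO. In aged against adult WT 4 of 4 tested neutrophil and 5 of 9 macrophage markers were higher, and 0 of either with the control term. In aged against adult KO 2 neutrophil and 2 macrophage markers were higher, and 1 and 2 with the term. There 3.71% of all genes were higher, and with the term 9.99% were called in either direction. Satellite cell and myoblast markers summed to 4760 to 6060 and 4410 to 5770 in WT and 2990 to 4020 and 2280 to 4440 in KO, with 1 of 6 tested higher and 2 lower in adult KO and 1 higher and 3 lower in aged KO; with the control term 1 was higher and 2 lower in adults and 2 lower in aged mice. Of 10 fibroblast markers 2 were lower in adult KO and 4 higher in aged KO, and with the control term 2 were higher in adults and 0 were called in aged mice. Of 2 tested erythroid markers 1 was lower in adult KO and 2 in aged KO, and 0 and 2 with the term. Of 8 lymphocyte markers 7 were dim. The 1 tested was higher in adult KO and in aged against adult WT, and in neither with the control term. In aged against adult KO it was called higher only with the term. The part of these cells in the differences of Mcm6, Pcna, Ccnd1 and the other members was not tested, and in whole muscle fewer cells of a type and less RNA per cell cannot be told apart.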

How the data were processed

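Affymetrix arrays of 19 muscle samples were used. The deposited values are linear intensities of probe sets, made by the authors with MAS5 per the submitters' processing notes (version not given in the sources used here). Of 22690 probe sets, 64 controls were left out of the tests, and 20380 with exactly 1 gene symbol in the platform annotation were used; 691 with several symbols and 1555 with none were not. MAS5 subtracts mismatch signal, which makes dim values noisy. Intensities were turned to log2(value + 4.76), with the 10th percentile of the table as pseudocount. The array medians spanned 0.63, over the limit of 0.5, so arrays were quantile normalized. The brightest probe set stood for a gene, and the brighter 60% of genes were tested (limma 3.58.1, R 4.3.3, lmFit and eBayes), with group means and, as an alternative, the presence of poly-A control signal as a term. The fit was tested on simulated data. Every adjusted p named is limma's, adjusted by Benjamini-Hochberg over all genes tested.

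The members and gene lists were chosen with earlier results of these data known. Values on every array are given for members called in a pairwise comparison and for Mki67, Top2a, Pcna, Cdk1, Cdkn1a, Dtl, Mcm6 and E2f4; from each wider list the called genes of smallest p may be named. Promoters came from RefSeq and were searched by exact match. The control term, array weights, a random block for the title codes, other normalizations, pseudocounts, filters and probe set rules, leaving out the 2 KO_Aged arrays of high Gapdh ratio, and leaving out each array were tried; leaving out WT_Adult arrays 4 and 5, which stand apart from the other 3, and testing each probe set on its own were added after seeing the data. The number of arrays limits the precision. Plots were made with Python 3.11.15 and matplotlib 3.10.9.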

Additional observations from a re-analysis of the deposited data

Results flagged for a closer look

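Of 88 groups of 4 or 5 arrays examined for the 22 tested members, 6 held 1 array far from the others. Chance gives about 1 in 20. The distances were taken on the normalized log2 scale, so the deposited intensities in brackets need not show the same gap. The gap to the nearest array as a share of the group's range is given for each. It was 0.779 for Mcm3 on WT_Adult array 5 (89.9, the others 142 to 168) and 0.759 for Mcm4 on the same array (123, the others 130 to 148). Mcm4 on KO_Aged array 4 had 0.954 (320.4, the others 166 to 222), and Cdk2 on KO_Aged array 2 had 0.856 (116, the others 81.8 to 97.7). Cdk4 on WT_Aged array 5 had 0.802 (249.8, the others 368 to 406), and Cdkn1c on KO_Adult array 5 had 0.741 (364, the others 175 to 210.2).

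The genotype difference changed between adult and aged mice, by the test of the interaction, for 8 members. It was larger in aged mice for Mcm6 by 1.76 and turned from lower to higher for E2f4 (4.64), Ccnd3 (1.59) and Cdk4 (0.91), of which only E2f4 was called at both ages. It moved the other way for Dtl (-3.47), Ccnd1 (-1.71), Rb1 (-1.56) and Cdkn1b (-1.87). With the control term none of the 8 passed. The call of Cdk4 was also lost without any 1 of 13 arrays (0.79 to 0.93), that of Rb1 without any 1 of 5, and that of Cdkn1b without KO_Adult array 3 (-1.64) or KO_Aged array 3 (-1.73); without both KO_Aged arrays of high Gapdh ratio Mcm6 (1.44), Cdk4 (0.71), Rb1 (-1.31) and Cdkn1b (-1.59) did not pass.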

How the results depend on the processing

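No paired analysis was possible because the titles carry codes and no replicate numbers that groups share; the first 4 digits of the codes as a random block left 34 of 39 member differences on their side of the threshold and ended 5 calls: Mcm4 (0.51) and Aurka (0.53) for age in WT, Mcm6 for age in KO (1.12), Aurka in adult KO (-0.85) and the interaction of Cdk4 (0.94). Leaving out single arrays gave 711 values for the calls of the members, of which 629 kept their direction and side of the threshold, 79 lost the call and 3 turned; the other alternatives gave 504, of which 387 kept both, 101 lost the call, 2 gained it and 14 turned. The number of members called changed as follows. In adult KO against WT it was 8, and 2 with the upper 40% of genes (10 members tested), 4 with only the groups compared, 13 with array weights, 3 with the control term, 3 with that term and without the KO_Aged arrays of high Gapdh ratio, and 5 to 9 without single arrays (5 without KO_Adult array 3 or 4). In aged KO against WT it was 9, and 5 with the upper 40%, 2 with the control term, 5 without those KO_Aged arrays, 3 with both and 6 to 9 without single arrays. In aged against adult WT it was 9, and 3 with the upper 40%, 0 with the control term, 0 with both and 6 to 9 without single arrays. In aged against adult KO it was 4, and 2 with median centring, 1 with no filter, 2 with the upper 40%, 2 with only the groups compared, 0 without the KO_Aged arrays of high Gapdh ratio and 1 to 5 without single arrays (2 without KO_Adult array 3, 4 or 5, and 1 without KO_Aged array 3). For the interaction it was 8, and 4 with the upper 40%, 0 with the control term, 4 without those arrays, 0 with both and 4 to 8 without single arrays (4 without KO_Adult array 3, and 5 without KO_Adult array 4 or KO_Aged array 2 or 3). Values that turned with the control term, first alone and then without those KO_Aged arrays, were those of Cdk4 in aged KO against WT (-0.0066 and -0.20) and its interaction (-0.18 and -0.37), Ccnd3 in aged against adult WT (0.031 and 0.034), E2f4 in aged KO against WT (-0.46 and -0.26), and the interactions of Rb1 (1.05 and 1.28), Cdkn1b (0.18 and 0.45) and, with the term alone, Ccnd3 (-0.11). Rb1 in aged against adult KO turned with array weights (-0.31) and without KO_Adult array 1 (-0.14), KO_Adult array 2 (-0.15) or KO_Aged array 4 (-0.02), within -0.15 to 0.29 over all arrays left out. With median centring the median over all genes went in adult KO against WT from 0.04 to 0.19 and for the interaction from 0.04 to -0.13. The cause of these changes was not tested. Dim probe sets limit what could be seen: 15 of 37 members were under the filter.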
